A study of Mus musculus with 2 samples.

Results

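The kidney takes up filtered amino acids and converts many of them, and 56 genes for enzymes of amino acid, creatine and inositol metabolism (and 1 regulatory kinase among them) were followed here in mice that lack Iah1. They were taken by name from a fixed list, 54 of them had a probe set with a single gene symbol, and the brightest such probe set stood for the gene. The series as a whole covered 22180 genes in this way. Pycr1 and Gstz1, the other two of the list, were not analysed here.

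Total RNA was extracted from kidneys of male mice of the genotypes Iah1-WT (wild type) and Iah1-KO (systemic knockout). Iah1 is named for its likeness to yeast esterases that hydrolyse isoamyl acetate. Both genotypes received chow up to an age of 6 weeks and a high-fat diet for 12 weeks after that, lived singly, and were killed after 4 hours without food. For each genotype, RNA of 3 mice was pooled and hybridised to 1 Affymetrix whole-transcript array. There is therefore no replicate, no error and no test for any difference below, and the spread between mice is unknown. The strain background, the part of Iah1 that was deleted and whether the controls were littermates are not stated in the labels.

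The proximal tubule, the first stretch of the nephron after the glomerulus, is the main site of these reactions in the kidney. It makes arginine from citrulline that the gut releases, makes guanidinoacetate, the precursor of creatine, and opens the ring of inositol in a reaction largely restricted to this organ. It also breaks down proline, glycine, tyrosine, tryptophan and the branched-chain amino acids, mostly in mitochondria, and deacylates amino acid conjugates.

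Values are log2 signals after robust multi-array averaging (RMA), which subtracts background, forces both arrays to a common distribution and summarises the probes of each set. A difference is knockout minus wild type, on the log2 scale, and a pair of levels gives wild type first. Signals of different genes depend on their probes, so levels are compared only within a gene; a gene's place in the signal order of an array is not an order of RNA amounts. Counts use genes with a value of at least 6 on 1 of the arrays, called the expression floor; 7671 genes reached it. Iah1 itself was at 9.09 in wild type and 3.60 in the knockout, where the median of all probe sets was 4.03.

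The kidney label was checked against marker genes of its cells. All 8 markers of the early and all 8 of the late proximal tubule were at or above the floor, among them Slc34a1, the phosphate cotransporter, at 12.62 and 12.67. The median difference was 0.00 for the early and -0.01 for the late list, and single markers lay between -0.25 (Cyp7b1) and 0.19 (Slc7a12). Hepatocytes hold many of the same enzymes. Of 5 hepatocyte markers, Apoa1, Fgb and Ahsg were below the floor, and Alb and Ttr were at 8.28 and 11.17 in wild type and at 8.68 and 10.98 in the knockout. The adrenal list had 0 of 5 and the lymphocyte list 0 of 4 genes at the floor. Over markers at the floor, the median difference was 0.26 for macrophages (3 of 4 above 0), 0.15 for principal cells (4 of 6), 0.13 for endothelium (5 of 6), 0.08 for the distal convoluted tubule (4 of 4) and 0.06 for podocytes (2 of 2). It was -0.12 for the thick ascending limb (5 of 5 below 0), -0.10 for intercalated cells (4 of 6) and -0.03 for fibroblasts (4 of 4), and of the adipocyte list only Fabp4 (-0.07) was at the floor. Single markers at the floor differed more than these medians, furthest Atp6v1g3 of intercalated cells (-0.81), Lyz2 of macrophages (0.63) and Aqp4 of principal cells (0.57). The macrophage marker Cx3cr1, at 5.75 and 6.16, reached the floor in the knockout alone. Macrophage markers below the floor differed by -0.73 (Adgre1), -0.23 (Cd68) and 0.04 (C1qa). Also below it were Pvalb of the distal convoluted tubule (-0.33), Col3a1 of fibroblasts (0.27) and Cldn16 of the thick ascending limb (0.01). The podocyte markers Nphs1 (0.31) and Synpo (-0.15) were below it too. The part of these cell types in the results was not tested, and in tissue RNA fewer cells of a type cannot be told apart from less RNA per cell.

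Of the 56 genes, 49 were at or above the floor, and as a group they differed little between the pools. Their median difference was -0.01, against 0.01 for all genes at the floor, with 23 above 0 and 26 below. At least 1.2-fold higher in the Iah1-KO pool were 2 of the 49, Gamt and Asl (4.08%), where 5.36% of all genes were. At least 1.2-fold lower were 4, Ass1, Ddc, Aspa and Hpd (8.16%), where 3.77% of all genes were. Of these, Ass1 reached the floor on the Iah1-WT array alone. None of the 49 reached 1.5-fold, a size that 0.222% of all genes reached upwards and 0.209% downwards. With counts this small no difference from the background can be read, and no test is possible. At 1.1-fold, a threshold added after the data were seen, 6 were higher (12.2%, against 17.5% of all genes) and 9 lower (18.4%, against 14.4%). Hpd (-0.29) was the last gene inside the 1.2-fold threshold and Bcat2 (-0.24) the first outside it.

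**Figure D1:**
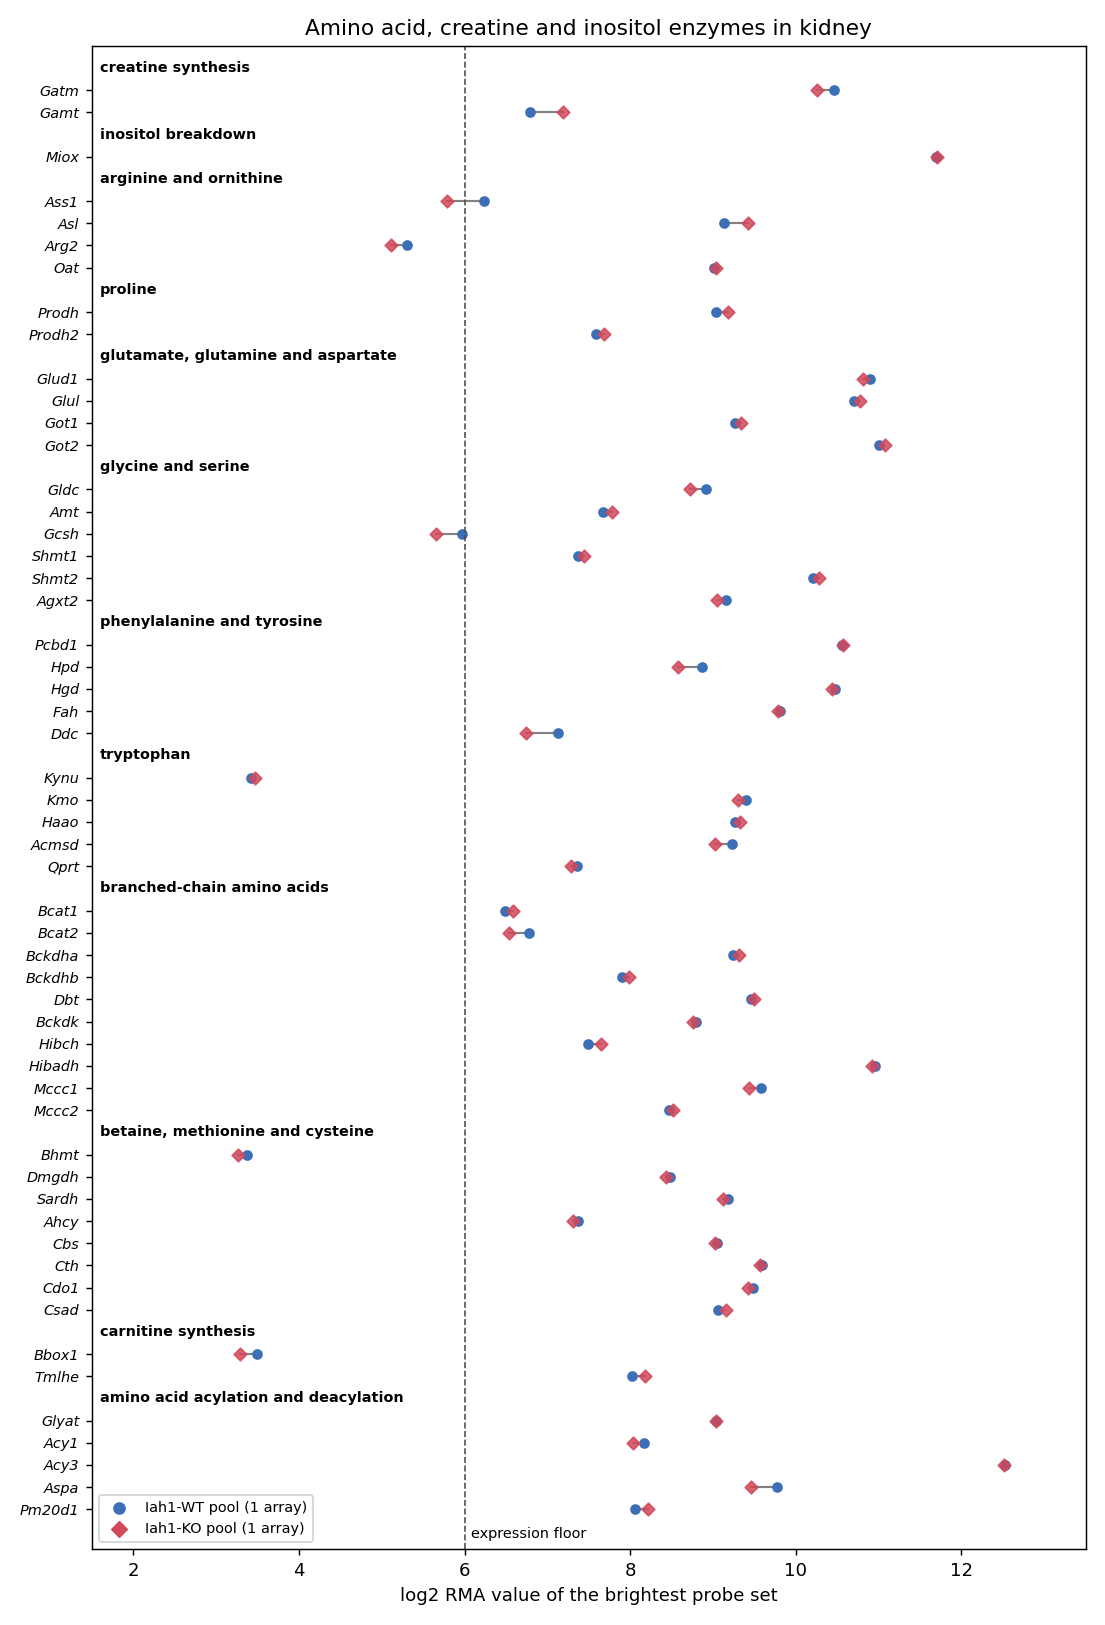
Log2 RMA value of each of the 54 measured genes (horizontal axis) in the Iah1-WT pool (circles) and the Iah1-KO pool (diamonds), 1 array each, grouped by the amino acid or product they handle; the dashed line is the expression floor of 6. For most genes the 2 symbols overlap; the widest gaps are those of Ass1, Gamt and Ddc.

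Creatine synthesis takes 2 steps, and its enzymes differed in opposite directions. Gatm, the mitochondrial amidinotransferase that joins arginine and glycine to guanidinoacetate, was at 10.46 in wild type and 10.26 in the knockout, a difference of -0.20. Gamt, which methylates guanidinoacetate to creatine and is known mainly for its role in liver, was at 6.79 and 7.19. That is 1.31-fold higher in the Iah1-KO pool, the furthest upward of all 49 and rank 126 of 7671 genes in that direction. As a yardstick, a local SD of the difference was used, a robust SD across the 500 genes closest in mean signal; the difference of Gamt was 2.90 times this local SD and that of Gatm -1.96 times. Other genes of creatine handling did not reach 1.2-fold: the creatine transporter Slc6a8 differed by -0.01, the kinase Ckb by 0.06 and the mitochondrial kinase Ckmt1 by -0.17.

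Inositol breakdown rests on Miox, the oxygenase that opens myo-inositol to glucuronate. It was at 11.69 in wild type and 11.71 in the knockout and stood at place 51 of 22180 in the signal order of both arrays. Of the genes that act beside it, Akr1a1 and Dcxr, reductases that carry glucuronate onwards to xylulose, differed by -0.07 and 0.12. The 5 other genes of inositol handling at the floor lay between -0.07 and 0.12, so none was past 1.2-fold.

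Arginine synthesis from citrulline also takes 2 steps, with opposite differences. Ass1, which joins citrulline and aspartate to argininosuccinate, was at 6.24 in wild type and 5.79 in the knockout, 1.37-fold lower and the furthest downward of the 49 (rank 55 of 7671). It reached the floor on the Iah1-WT array alone, and a gene that dim enters the count through its higher value. Asl, which splits argininosuccinate into arginine and fumarate, was at 9.13 and 9.42, a 1.22-fold higher value in the Iah1-KO pool. Against the local SD of its signal range, 0.09, the difference of Asl (3.30 times) was larger than that of Ass1 (-2.45 times, local SD 0.18). Oat, the mitochondrial ornithine aminotransferase, was at 9.01 and 9.04, and the mitochondrial arginase Arg2, at 5.31 and 5.11, was below the floor. Agmat, which hydrolyses agmatine, was at 5.70 and 6.05 and reached the floor in the knockout alone. The urea cycle genes typical of liver, Cps1, Otc and Arg1, all lay below 4.5 on both arrays.

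The promoters of the 2 genes furthest from 0, Gamt upwards and Ass1 downwards, are shown to set the regulatory sequence beside the values. RefSeq sequences on GRCm38.p6 were used, from 250 bases before to 50 bases after the annotated start, written in the direction of transcription; of the 54 measured genes 46 had such a sequence. Short letter runs, searched on both strands, stood for the E-box (CACGTG), the D-box of clock output factors (TTATGNAA), a C/EBP-ATF element (TGATGNAA), the cAMP response element (TGACGTCA) and the TATA box (TATAAA). Longer motifs were a DR1 element (the repeat bound by lipid-sensing nuclear receptors), a palindromic glucocorticoid response element and a palindromic HNF1 element, each searched as 1 consensus. Capitals mark matches. The Gamt window, chr10:80260963-80261262 on the minus strand, held none of the letters searched. The Ass1 window, chr2:31470020-31470319 on the plus strand, held 1 E-box that begins 36 bases before the start.
Gamt: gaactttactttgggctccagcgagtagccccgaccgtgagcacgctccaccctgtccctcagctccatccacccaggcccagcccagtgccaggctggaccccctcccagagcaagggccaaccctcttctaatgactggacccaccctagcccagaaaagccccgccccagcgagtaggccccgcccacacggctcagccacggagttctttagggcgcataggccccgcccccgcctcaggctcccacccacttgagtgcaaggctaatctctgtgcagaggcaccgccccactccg
Ass1: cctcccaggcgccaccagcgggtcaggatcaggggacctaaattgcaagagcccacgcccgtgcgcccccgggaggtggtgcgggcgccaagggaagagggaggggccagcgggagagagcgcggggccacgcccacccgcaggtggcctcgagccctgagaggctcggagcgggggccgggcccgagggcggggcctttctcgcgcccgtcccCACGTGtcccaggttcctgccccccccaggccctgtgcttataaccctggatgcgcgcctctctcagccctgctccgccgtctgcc
An E-box was present in 8.09% of all 27025 genes with a promoter in the table. Among the 46 genes it was present in 4 (Ass1, Acy1, Cbs and Mccc2), whose differences were -0.45, -0.13, -0.02 and 0.05. A match describes the letters and is not a binding site.

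Both measured proline breakdown genes were above 0 and within 1.2-fold. Prodh, the mitochondrial proline dehydrogenase, was at 9.03 and 9.19 (difference 0.15, or 1.75 local SDs). Prodh2, which oxidises hydroxyproline, was at 7.59 and 7.69 (0.10, or 0.73 local SDs). Of the next steps, Aldh4a1 and Hoga1 differed by 0.02 and -0.05, and Pycrl, an enzyme of proline synthesis, by -0.19. None of these genes was past 1.2-fold.

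The enzymes of glutamate, glutamine and aspartate were all within 1.06-fold. Glud1, glutamate dehydrogenase, which releases ammonia for excretion, was at 10.89 in wild type and 10.82 in the knockout. Glul, glutamine synthetase, was at 10.71 and 10.78 in its brightest probe set, while a second, dim one was at 4.43 and 4.75. The cytosolic and mitochondrial aspartate aminotransferases Got1 and Got2 differed by 0.08 and 0.07, so the pair of compartments showed the same small difference; a second probe set of Got2, below the floor, differed by 0.20.

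In glycine and serine metabolism the subunits of the mitochondrial glycine cleavage system lay on both sides of 0, and Amt and Dld were within 1 local SD of it. Gldc, the decarboxylase subunit, was at 8.92 in wild type and 8.72 in the knockout, a difference of -0.20 or -1.88 times the local SD. Amt, the aminomethyltransferase subunit, was at 7.68 and 7.78, a difference of 0.10 or 0.79 times the local SD. Gcsh, the lipoyl carrier subunit, was at 5.96 and 5.65, just below the floor on both arrays, and its difference of -0.31 is not counted. Dld, the shared lipoamide dehydrogenase, differed by -0.09 or -0.87 times the local SD. Shmt1 and Shmt2, the cytosolic and mitochondrial serine hydroxymethyltransferases, both differed by 0.08. Agxt2, an aminotransferase that clears beta-aminoisobutyrate and dimethylarginine, was at 9.16 and 9.05. Of the other enzymes here at or above the floor Gnmt, the glycine N-methyltransferase, was furthest at -0.18. The signals of the serine synthesis genes Phgdh, Psat1 and Psph were all below the floor. Psph was at 5.25 and 5.81, a difference of 0.56.

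Tyrosine breakdown and dopamine synthesis held 2 of the 4 lower genes. Hpd, the dioxygenase that turns hydroxyphenylpyruvate into homogentisate, was at 8.87 in wild type and 8.58 in the knockout, 1.22-fold lower, at -2.70 local SDs. Ddc, the decarboxylase by which tubule cells make dopamine from filtered L-dopa, was at 7.13 and 6.74, 1.31-fold lower (rank 87 of 7671). The steps after Hpd were close to 0. Hgd, homogentisate dioxygenase, was at 10.47 and 10.44, and Fah, which completes the pathway, at 9.81 and 9.79. Pcbd1, which regenerates the pterin cofactor of phenylalanine hydroxylation and is also a cofactor of HNF1 factors, was at 10.56 and 10.57. Of Hpd, Hgd and Fah, Hpd was the one past 1.2-fold. Tat, the tyrosine aminotransferase typical of liver, was at 3.65 and 3.70.

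Ddc has 2 annotated promoter windows in the table. The upstream one, chr11:11898095-11898394 on the minus strand, is shown because it held both a D-box match and a TATA match, which begin 243 and 68 bases before the start.
Ddc: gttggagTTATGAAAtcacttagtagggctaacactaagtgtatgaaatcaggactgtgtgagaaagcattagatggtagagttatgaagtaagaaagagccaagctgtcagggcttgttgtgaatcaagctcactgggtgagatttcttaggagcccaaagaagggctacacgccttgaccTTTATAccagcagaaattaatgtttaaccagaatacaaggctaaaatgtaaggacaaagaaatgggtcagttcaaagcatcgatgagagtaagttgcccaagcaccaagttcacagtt
The other Ddc window (chr11:11890359-11890658) and that of Hpd held none of the letters. A D-box match was present in 3.99% of all genes and in 2 of the 46, Ddc and Miox, which differed by -0.39 and 0.02. TATA letters were present in 15.7% of all genes and in 11 of the 46. The cAMP response, DR1, glucocorticoid response and HNF1 letters were present in 0 of the 46 and in 2.03%, 0.0481%, 0.0111% and 0.0111% of all genes. The C/EBP-ATF letters were in 4.51% of all genes and in 1 of the 46, Got1.

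In the kynurenine pathway of tryptophan, Acmsd was the furthest from 0 of the 5 listed genes. This decarboxylase, which diverts the pathway away from quinolinate and NAD, was at 9.23 in wild type and 9.03 in the knockout. Its difference of -0.21 did not reach 1.2-fold but was -2.37 times the local SD. Upstream of it, Kmo, kynurenine monooxygenase, was at 9.40 and 9.30, and Haao, which makes the substrate of Acmsd, at 9.27 and 9.33. Qprt, on the branch to NAD, was at 7.35 and 7.29, so neither branch was past 1.2-fold. Kynu, kynureninase, was at 3.42 and 3.47, below the median of all probe sets. Of the entry enzymes, Tdo2 was at 3.45 and 3.86 and Ido1 at 3.57 and 4.01, below the floor, while Ido2 was above it at 6.41 and 6.23. Naprt, which salvages nicotinic acid into NAD and was on the list of other enzymes, was at 6.28 and 6.74, the largest difference of those enzymes at the floor (0.46).

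Branched-chain amino acid breakdown, the largest group, had all 10 of its genes at the floor and none past 1.2-fold. Bcat2, the mitochondrial aminotransferase of the first step, was furthest lower, at 6.78 in wild type and 6.53 in the knockout, whereas its cytosolic paralog Bcat1 was at 6.49 and 6.58. The subunits of the branched-chain ketoacid dehydrogenase, the committed step, were close together. Bckdha differed by 0.07, Bckdhb by 0.08 and Dbt by 0.03, and the kinase Bckdk, which inhibits the complex, by -0.03. Further down the valine branch Hibch was at 7.50 and 7.65 and Hibadh at 10.96 and 10.92. The 2 subunits of the methylcrotonyl-CoA carboxylase of the leucine branch differed by -0.15 (Mccc1) and 0.05 (Mccc2). Of 13 other enzymes of these branches 10 were below 0, with a median of -0.05. Among all genes at the floor 3653 of 7671 were below 0. The 10 listed genes went the other way, with 6 above 0, 4 below and a median of 0.04. No shared direction was tested. Of the 13, Mcee, the methylmalonyl-CoA epimerase, was the furthest at 8.21 and 7.94, 1.2-fold lower.

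Betaine, methionine and cysteine enzymes were close together, with 7 at the floor between -0.06 and 0.10. Dmgdh and Sardh, which demethylate dimethylglycine and sarcosine in mitochondria, differed by -0.04 and -0.06. A second probe set of Sardh, below the floor at 2.71 and 2.44, differed by -0.27. The transsulfuration enzymes Cbs and Cth were at 9.04 and 9.59 in wild type and at 9.02 and 9.57 in the knockout, each differing by -0.02. Cdo1, the cysteine dioxygenase, differed by -0.05, and Csad, which follows it towards taurine, was furthest at 9.06 and 9.16. Ahcy, the adenosylhomocysteine hydrolase, differed by -0.06 in both of its probe sets, at 7.37 and 5.49 in the Iah1-WT pool. Bhmt, the betaine-homocysteine methyltransferase, was below the floor at 3.38 and 3.27, and its paralog Bhmt2 was at 8.75 and 8.69. Suox, the sulfite oxidase on the other enzyme list, differed by 0.23.

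Of the 2 carnitine synthesis genes, the first of the pathway was above the floor and the last below it. Tmlhe, the mitochondrial trimethyllysine dioxygenase, was at 8.03 and 8.18, and Bbox1, the butyrobetaine hydroxylase, at 3.49 and 3.29. Aldh9a1, which acts between them, differed by -0.12, and the carnitine transporter Slc22a5 by 0.12.

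Of the 5 listed genes that acylate or deacylate amino acids, Aspa was furthest from 0. This aminoacylase, which cleaves N-acetylaspartate, was at 9.78 in wild type and 9.46 in the knockout, 1.24-fold lower, at -3.22 local SDs. Its paralog Acy3, which deacylates mercapturates and aromatic acyl amino acids, was at 12.52 on both arrays, place 18 in each signal order. Acy1, the general aminoacylase, was at 8.16 and 8.03, and Pm20d1, which makes and cleaves fatty acyl amino acids, at 8.06 and 8.22. Glyat, which conjugates benzoate to glycine, differed by -0.01. Nat8, an N-acetyltransferase of cysteine conjugates on the other enzyme list, was at 7.81 and 8.16, a difference of 0.35. The Aspa promoter, chr11:73324588-73324887 on the minus strand, is shown because Aspa had the largest downward difference for its signal; the capitals are TATA letters, 3 matches of which 2 overlap.
Aspa: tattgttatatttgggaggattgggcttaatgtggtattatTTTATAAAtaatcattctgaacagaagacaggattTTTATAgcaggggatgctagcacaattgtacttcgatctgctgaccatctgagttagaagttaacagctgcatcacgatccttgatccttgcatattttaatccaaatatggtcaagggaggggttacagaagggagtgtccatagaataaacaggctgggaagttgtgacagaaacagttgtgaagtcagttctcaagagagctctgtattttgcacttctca
The nearest of the 3 begins 174 bases before the annotated start, and no promoter of Asl was in the table.

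**Figure D2:**
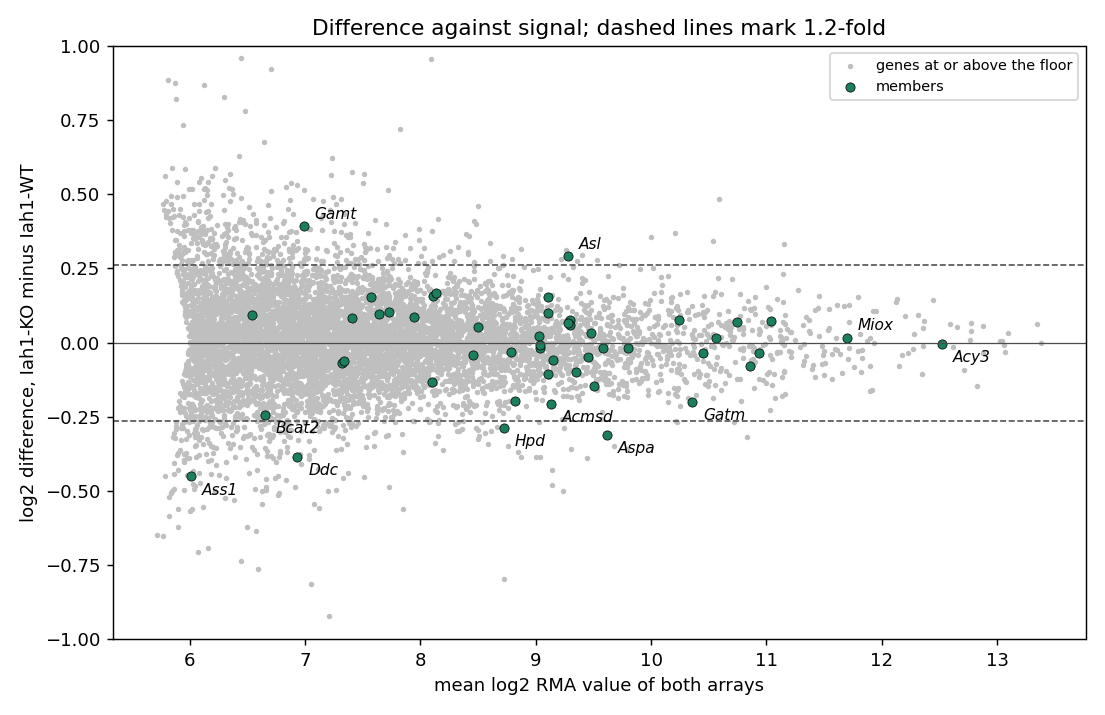
Log2 difference (Iah1-KO minus Iah1-WT, vertical axis) against the mean log2 value of both arrays (horizontal axis) for the 7671 genes at or above the floor (grey; 4 genes beyond 1 in either direction are not drawn) and the 49 enzyme genes (green). Grey scatter narrows as signal rises; Asl, Hpd and Aspa lie outside the 1.2-fold lines at a mean above 8, where 3.26% of all genes do.

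Dim genes scatter more, and the enzyme genes are mostly bright. Of the 37 with a mean of at least 8, 3 (8.11%) were past 1.2-fold, against 3.26% of 2391 genes that bright. Past 2 local SDs were 7 of the 49 (14.3%), the 6 genes past 1.2-fold and Acmsd, against 7.12% of all genes. Among the 7, Ass1 reached the floor on the Iah1-WT array alone. Yet the median size of the difference was 0.08 for the 49 and 0.09 for all genes, and 30 of the 49 (61.2%) were within 1 local SD, against 66.0%. Most of the genes thus lay near 0, as most other genes did, and 7 lay past 2 local SDs. The local SD is a spread across genes and not an error, and with counts this small no difference from the background can be read.

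The enzymes of mitochondria and those outside them were then set side by side, a split chosen after the values were seen. Of 24 mitochondrial enzymes at the floor 0 were past 1.2-fold, and they lay between -0.24 (Bcat2) and 0.16 (Tmlhe), 12 on each side of 0. Of the other 25, cytosolic for the most part, 6 were past it. The 25 lay between -0.45 (Ass1, at the floor on the Iah1-WT array alone) and 0.39 (Gamt). Of all genes at the floor 9.13% were past it in either direction, and neither count was tested against that share. The median sizes of the difference were alike in the 2 groups, 0.08 in each.

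Enzymes of consecutive or neighbouring steps and subunits of one complex were compared in 12 pairs; Kynu acts between Kmo and Haao, and Gstz1 between Hgd and Fah. The pairs were picked by hand and are not all possible pairs, and Hgd stands both with Hpd and with Fah. In 7 pairs the differences had opposite signs and in 5 the same. These counts were not tested. Some signs belong to differences far below 1 local SD, such as those of Cbs (-0.22 times) and Cth (-0.19 times), and carry little. The widest gaps were those of Ass1 and Asl, 0.74 apart, and of Gatm and Gamt, 0.59 apart. Ass1 was dim and reached the floor on the Iah1-WT array alone. Cbs and Cth, Dmgdh and Sardh, Bckdha and Bckdhb, and Hgd and Fah were all within 0.02 of each other.

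**Figure D3:**
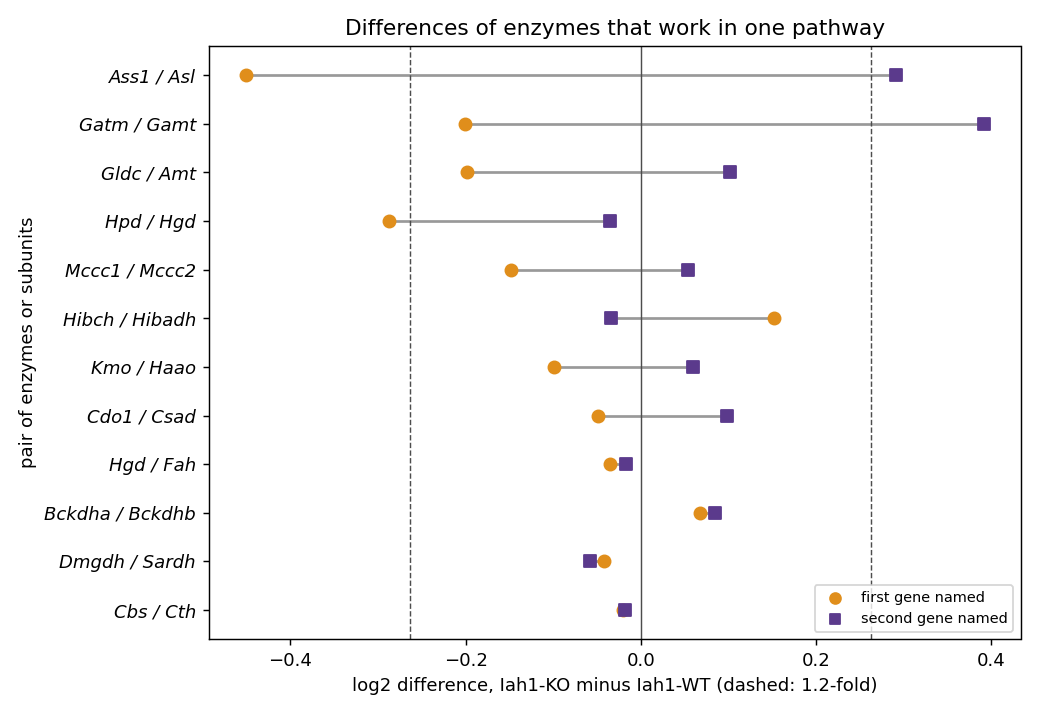
Log2 difference, Iah1-KO minus Iah1-WT (horizontal axis), of the first (circle) and second (square) gene of 12 pairs of enzymes or subunits that work in one pathway (vertical axis), ordered by the gap between them. The Ass1 and Asl pair and the Gatm and Gamt pair span 0 with gaps of 0.74 and 0.59, while the lowest 4 pairs have gaps under 0.02. Ass1 reached the floor on the Iah1-WT array alone.

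The list of other enzymes of these pathways, which also holds lysine and histidine breakdown, had 109 genes, of which 93 were measured and 67 were at or above the floor. Their median difference was -0.01, with 32 above 0 and 35 below. Past 1.2-fold were 3 upwards (Naprt, Nat8 and Agmat, 4.48%) and 1 downwards (Mcee, 1.49%), none past 1.5-fold, beside the 5.36% and 3.77% of all genes. Agmat enters this count through its Iah1-KO value, as it was below the floor in the Iah1-WT pool. Aass, which begins lysine breakdown, differed by -0.06 and Uroc1, of histidine breakdown, by 0.10. In the classes not named above the furthest were Gpt2 at 0.06 and Qdpr at 0.04.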

How the data were processed

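Kidney RNA of 2 pools was measured on 2 arrays, 1 per genotype. The authors deposited log2 values per probe set, made, per the submitters' processing notes, with RMA and Affymetrix Expression Console version 1.3.0; per the labels' protocols, 100 ng of total RNA was labelled with biotin. Quantile normalization in RMA hides a shift shared by most genes. Differences of dim genes can also be compressed in array signals. No genome build of the array annotation was used (not given in the sources used here). GEO's platform annotation gave 1 symbol to 23521 of 41345 probe sets, several to 1814 and none to 16010; 23328 matched RefSeq by Entrez number. Of the 109 other enzymes 4 matched through a synonym.

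Differences, counts, medians and local robust SDs (median absolute deviation times 1.4826) were computed with Python 3.11.15, numpy 2.4.6 and pandas 2.3.3, and checked on simulated data. No protein sequences were used here. With 1 array per genotype the number of arrays limits the precision. The genes, gene classes, thresholds and motifs were chosen with earlier results of these data known. Values are given for Gatm, Gamt, Miox, every gene past 1.2-fold and the furthest in each class, besides the others described by class. Alternatives were floors of 5, 7 or none, a floor on the mean, median centring, loess (span 0.3, statsmodels 0.14.6), the mean over probe sets and the mean of the list.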

Additional observations from a re-analysis of the deposited data

How the results depend on the processing

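Of the 23 genes chosen by the naming rule, none crossed 0 or moved by more than its local SD under median centring, loess correction or the mean over probe sets. The furthest shift was 0.02, under loess. Median centring takes the same 0.00848 from every gene, and of the 23 only Ahcy had a second probe set. Both of these alternatives could therefore move little, and their outcome says little about how firm the differences are. No alternative put a gene past 1.5-fold, and the count past 1.2-fold stayed at 2 upwards and between 3 and 5 downwards under the other floors, where Ass1 dropped out with a floor of 7 and Gcsh came in with a floor of 5. At a fold of 1.1, chosen after seeing the data, 6 genes were higher and 9 lower, 12.2% and 18.4% of the list against 17.5% and 14.4% of all genes. The median of the list, or its mean where that replaced the median, lay between -0.018 and -0.005 under each alternative. Of the class medians, that of arginine and ornithine (0.02) was -0.0876 with a floor of 5 or none, which adds Arg2, and 0.16 with a floor of 7, which removes Ass1. That of carnitine synthesis (0.16) was -0.0249 with no floor, which adds Bbox1. That of glycine and serine (0.08) also changed sign, to -0.016 with a floor of 5 or none, which adds Gcsh. No paired analysis was possible because each genotype had 1 array.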
